A study of Mus musculus with 9 samples.

Results

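The genes described here encode the glycoproteins, proteoglycans and enzymes, other than the collagens, that build and crosslink the extracellular matrix. Members were chosen by name: every gene of the deposited table whose symbol matched a fixed pattern of matrix gene names (fibrillins, fibulins, elastin, lysyl oxidases, thrombospondins, small leucine-rich proteoglycans, syndecans and related families), 64 of 13336 genes. Their RNA was compared between 5 libraries labelled Lef1KI and 4 labelled WT, made from cultured mouse tracheal gland cells that the labels call myoepithelial cells, the contractile basal-type cells that wrap airway glands. Lef1KI cells came from ACTA2-CreERT2:Lef-1KI+/+ mice and were sorted as GFP-; WT cells came from ACTA2-CreERT2:ROSA-TG mice and were sorted as GFP+. In both lines a tamoxifen-inducible Cre is driven by ACTA2, the smooth muscle actin gene, all mice received tamoxifen on 5 days before harvest, and each library is a pool of 3 to 5 mice. The labels state no ages. All cells were grown to passage 1 in modified SAGM medium on a laminin-rich coating, with 10 µM Y-27632 (a ROCK inhibitor), 1 µM DMH-1 (of BMP receptors), 1 µM A83-01 (of TGF-beta receptors) and 1 µM CHIR 99021 (of GSK3; this activates Wnt signalling). The sort gate changes with the genotype in every library, so their parts in any difference cannot be told apart.

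Matrix glycoproteins are secreted and assembled outside the cell. Fibrillins form microfibrils on which elastin is deposited with the help of fibulins and emilins. Prolyl and lysyl hydroxylases modify collagen chains inside the cell, and lysyl oxidases crosslink collagen and elastin outside it. Matricellular proteins such as periostin, SPARC and thrombospondins bind matrix and cell receptors, and the small leucine-rich proteoglycans bind collagen fibrils. Fibroblasts are the best-known source of most of these proteins, while basal and myoepithelial cells contribute mainly to the basement membrane.

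Levels are in TPM, a gene's share of all transcripts after correction for length. Each difference subtracts the WT mean of log2(TPM + 1) from the Lef1KI mean, so that changes of genes close to 0 TPM come out smaller than they are. Gene positions are on mm10. A gene is said to have risen or fallen when limma's test over all 13336 genes gave a Benjamini-Hochberg adjusted p under 0.05. Lef1, the targeted gene, which encodes a DNA-binding protein of the Wnt pathway, had 210.1, 312, 309, 139 and 166 TPM in Lef1KI A to E, against 0.55, 0.46, 0.4 and 0.38 TPM in WT A, B, E and D (log2 difference 7.23, limma adjusted p 5.2e-08, exact two-sided permutation p 0.0159, the smallest that 5 against 4 libraries allow). The median log2 value per library lay between 3.58 and 3.97, and TPM keeps no read depth.

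To show the genes behind the clearest rises, the 250 bases before the RefSeq start are given for Bgn, Svep1, Postn and Srpx. Of the members that rose, these had the largest differences among those whose RefSeq start lay within 300 bases of the annotated gene start and whose following bases lay in an annotated transcript of the gene. Capitals mark a match to the core bound by TCF/LEF proteins, searched on both strands as CTTTGAA and as its variants, which end differently: CTTTGAT is one, then CTTTGTA was searched too, and last came CTTTGTT. The windows on GRCm38.p6, the assembly behind mm10, are chrX:73483351-73483600 (+ strand) for Bgn, chr4:58206597-58206846 (- strand) for Svep1, chr3:54360857-54361106 (+ strand) for Postn and chrX:10117641-10117890 (- strand) for Srpx, each written 5′ to 3′ on its gene's strand.
Bgn: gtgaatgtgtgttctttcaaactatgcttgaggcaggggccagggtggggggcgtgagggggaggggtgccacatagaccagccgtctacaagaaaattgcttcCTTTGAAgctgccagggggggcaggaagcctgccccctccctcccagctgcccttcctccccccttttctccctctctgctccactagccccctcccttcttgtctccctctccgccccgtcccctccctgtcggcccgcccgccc
Svep1: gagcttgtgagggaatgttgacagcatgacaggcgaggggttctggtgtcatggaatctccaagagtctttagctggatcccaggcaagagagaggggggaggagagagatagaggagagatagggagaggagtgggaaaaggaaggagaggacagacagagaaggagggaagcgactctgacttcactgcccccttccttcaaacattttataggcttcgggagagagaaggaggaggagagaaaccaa
Postn: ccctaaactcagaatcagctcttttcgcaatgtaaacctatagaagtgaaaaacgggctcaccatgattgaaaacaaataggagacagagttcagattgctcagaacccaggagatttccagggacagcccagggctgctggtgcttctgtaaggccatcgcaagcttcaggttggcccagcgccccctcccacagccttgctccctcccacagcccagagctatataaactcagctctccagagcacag
Srpx: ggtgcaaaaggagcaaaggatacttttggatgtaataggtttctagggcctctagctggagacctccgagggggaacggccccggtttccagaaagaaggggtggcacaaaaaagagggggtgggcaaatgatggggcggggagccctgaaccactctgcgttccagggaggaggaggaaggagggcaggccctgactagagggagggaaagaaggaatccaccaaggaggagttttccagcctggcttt
The Bgn window holds 1 match, CTTTGAA, which starts 146 bases before the RefSeq start, and the other 3 windows hold none. Windows were found for 44 of the 64 members, taking for each the one nearest the annotated start. Among the 18 members with a window that rose, 1 window (5.56%) holds a match, against 14.8% of all 32851 windows in the RefSeq table. A match describes letters and is not a measured binding site.

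Of the 64 members, 26 rose and 1 fell in Lef1KI. Over all genes of the deposited data, 6.73% of genes rose and 1.24% fell, against 40.6% and 1.56% of these members. The median log2 difference of the members was 0.50, against 0.14 over all genes. In 29 members every Lef1KI library lay above every WT library (45.3%, against 10.0% of all genes), and in 2 members, Fbln1 and Vwa7, every Lef1KI library lay below every WT library (1.89% of all genes). The table had been filtered by the authors to genes whose mean log2 value is at least 3 SD in 1 group, so a low gene could enter through the group where it is high: 13 members reached 3 SD in Lef1KI only and 2 in WT only. Among the 49 that reached it in both groups, 18 rose and 1 fell (36.7% rose, against 5.69% higher and 1.05% lower of the 11653 genes of that kind). The pattern matches 77 protein-coding genes of the GENCODE M21 annotation, of which 14, among them Fmod, Mfap5, Matn1 and Tnxb, have no values here and were not analysed.

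Centring each library on its median moved the median difference of all genes to -0.02. Then 21 members rose and 2 fell, and over all genes 605 rose (4.54%) and 332 fell (2.49%), against 898 and 165 on the deposited scale. Centring on a trimmed mean also gave 21 and 2 members (4.51% of all genes higher and 2.33% lower).

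**Figure D1:**
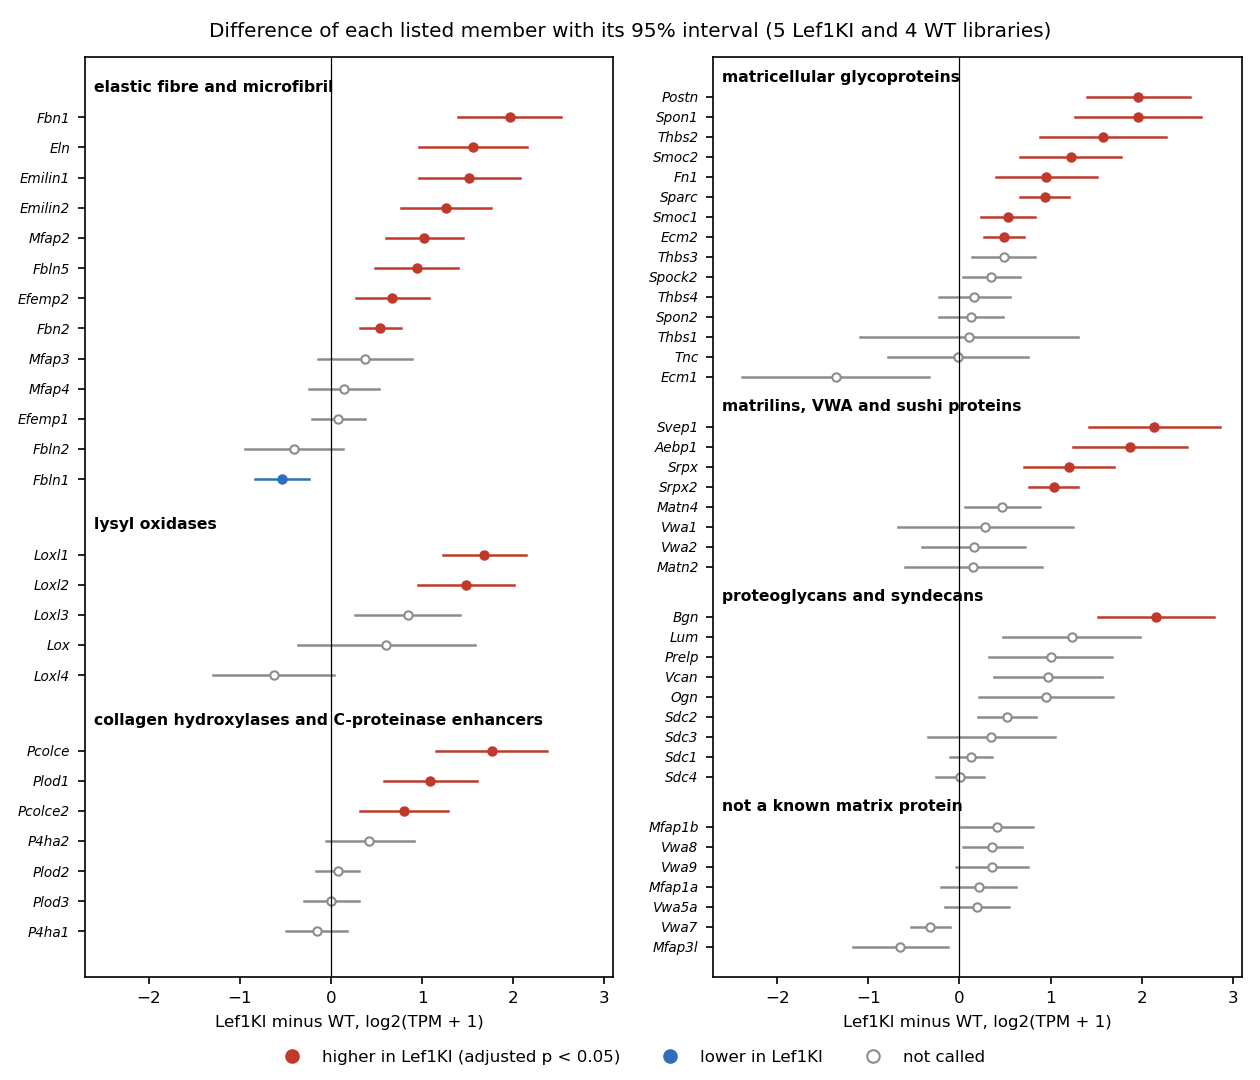
Difference of each of the 64 listed members, Lef1KI minus WT in log2(TPM + 1), as a point with its 95% interval, by role; red points rose, the blue point fell and grey points were not called (limma adjusted p under 0.05). The 26 rises reach 2.16 (Bgn), and Fbln1 is the only fall.

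Elastic fibre and microfibril genes held 8 rises and 1 fall among 13 members, with a median log2 difference of 0.68. Of the 9 that reached 3 SD in both groups 5 rose, while Eln, Mfap2 and Fbn2 had reached it in Lef1KI only. Fbn1, which encodes fibrillin-1, the main microfibril protein, had 12.8, 9.19, 23.7, 13.4 and 9.75 TPM in Lef1KI A to E, against 2.08, 2.52, 2.34 and 3.59 TPM in WT A, B, E and D (log2 difference 1.96, SE 0.26, limma adjusted p 0.00149). Fbn1 (ENSMUSG00000027204) lies on chromosome 2 from 125300594 to 125507993. Eln, the elastin gene, had 3.81, 3.65, 6.23, 6.11 and 1.87 TPM in Lef1KI A to E, against 1.04, 0.38, 0.45 and 1.12 TPM in WT A, B, E and D (log2 difference 1.56, SE 0.27, limma adjusted p 0.0056). Eln (ENSMUSG00000029675) lies on chromosome 5 from 134702593 to 134747323. Neither gene overlapped between the groups, and Lef1KI C held the highest value of both.

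Emilin1, Emilin2 and Mfap2 also rose, unlike Mfap4 and Fbln2 of the same role. Emilin1, a glycoprotein gene of the interface between elastin and microfibrils, had 16.6, 10.2, 12.7, 16.1 and 6.44 TPM in Lef1KI A to E, against 3.26, 3.5, 2.88 and 4.32 TPM in WT A, B, E and D (log2 difference 1.52, SE 0.25, limma adjusted p 0.0045). Its relative Emilin2 had 1.87, 1.74, 5.44, 2.92 and 2.79 TPM in Lef1KI A to E, against 0.66, 0.49, 0.47 and 0.67 TPM in WT A, B, E and D (log2 difference 1.26, SE 0.22, limma adjusted p 0.00638). Mfap2, a small microfibril-associated glycoprotein gene, had 3.39, 2.26, 2.65, 2.31 and 2.33 TPM in Lef1KI A to E, against 0.21, 1.43, 0.63 and 0.96 TPM in WT A, B, E and D (log2 difference 1.03, SE 0.19, limma adjusted p 0.00834). In each of the 3 genes the lowest Lef1KI library lay above the highest WT library.

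Fbln5 and Efemp2 encode fibulins that guide elastin assembly. Fbln5 had 1.49, 1.47, 3.2, 3.01 and 3.49 TPM in Lef1KI A to E, against 0.95, 0.99, 0.52 and 0.69 TPM in WT A, B, E and D (log2 difference 0.94, SE 0.21, limma adjusted p 0.0187). Without WT E or without WT D, each left out in turn (a leave-one-out fit), its call was lost. Efemp2 had 54.7, 39.95, 78.5, 62.4 and 44.6 TPM in Lef1KI A to E, against 31.03, 37.1, 35.7 and 31.5 TPM in WT A, B, E and D (log2 difference 0.68, SE 0.18, limma adjusted p 0.0476), with groups that did not overlap, but it stayed called in only 2 of 9 leave-one-out fits and lost the call under both scalings tried. Fbn2, the gene of a fibrillin best known from development, had 0.34, 0.36, 0.84, 0.44 and 0.58 TPM in Lef1KI A to E, against 0, 0.03, 0.06 and 0.03 TPM in WT A, B, E and D (log2 difference 0.54, SE 0.10, limma adjusted p 0.00817). It stayed under 1 TPM in every library and was listed at 0 in WT A.

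Fbln1, Efemp1 and Fbln2, also fibulin genes, were not among the rises. Fbln1, whose product is found in elastic fibres and basement membranes, had 55.3, 60.6, 38.2, 51.5 and 45.7 TPM in Lef1KI A to E, against 70.3, 70.4, 71.6 and 77.9 TPM in WT A, B, E and D (log2 difference -0.54, SE 0.14, limma adjusted p 0.035), a fall without overlap that stayed called in 2 of 9 leave-one-out fits. Fbln1 (ENSMUSG00000006369) lies on chromosome 15 from 85205949 to 85286535. Efemp1, the most abundant member of this role, had 204, 216, 199, 174 and 224 TPM in Lef1KI A to E, against 228, 181, 212 and 152 TPM in WT A, B, E and D, overlapping groups with a 95% interval for the log2 difference of -0.21 to 0.37 (limma adjusted p 0.718). Fbln2 had 21.9, 18.05, 13.6, 32.9 and 12.8 TPM in Lef1KI A to E, against 24.4, 29.9, 22.3 and 24.2 TPM in WT A, B, E and D (log2 difference -0.41, SE 0.25, limma adjusted p 0.337). Mfap3 and Mfap4 also overlapped (log2 differences 0.38 and 0.15), the second turning negative under both scalings.

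Of the 5 lysyl oxidase genes, the copper-dependent enzymes that crosslink collagen and elastin, Loxl1 and Loxl2 rose. Loxl1, known for its part in elastic fibre maintenance, had 12.4, 8.38, 17.4, 13.4 and 9.21 TPM in Lef1KI A to E, against 2.57, 2.77, 3.56 and 3.05 TPM in WT A, B, E and D (log2 difference 1.69, SE 0.21, limma adjusted p 0.00115). Loxl1 (ENSMUSG00000032334) lies on chromosome 9 from 58287738 to 58313186. Loxl2, an enzyme that crosslinks collagen IV, had 21.5, 15.5, 36.8, 28.4 and 16.3 TPM in Lef1KI A to E, against 7.03, 6.88, 7.68 and 8.11 TPM in WT A, B, E and D (log2 difference 1.48, SE 0.24, limma adjusted p 0.00397). Loxl2 (ENSMUSG00000034205) lies on chromosome 14 from 69609068 to 69695834. Neither gene overlapped between the groups. Loxl3 had 6.28, 2.89, 8.82, 5.14 and 3.61 TPM in Lef1KI A to E, against 1.61, 2.74, 2.54 and 2.68 TPM in WT A, B, E and D, without overlap but short of the threshold (log2 difference 0.84, SE 0.26, limma adjusted p 0.0767).

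Lox and Loxl4 were the most abundant genes of the family in WT and showed no called difference. Lox had 96.6, 63.4, 112, 106 and 59.6 TPM in Lef1KI A to E, against 20.02, 113, 42.8 and 94.3 TPM in WT A, B, E and D (log2 difference 0.61, SE 0.44, limma adjusted p 0.413). The WT libraries spread widely here, from well below every Lef1KI library in WT A to above every one in WT B. Loxl4 had 36.97, 37.9, 19.9, 53.05 and 41.2 TPM in Lef1KI A to E, against 33.5, 73.4, 51.04 and 79.8 TPM in WT A, B, E and D, overlapping groups with a 95% interval of -1.29 to 0.03 (log2 difference -0.63, SE 0.30, limma adjusted p 0.233).

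**Figure D2:**
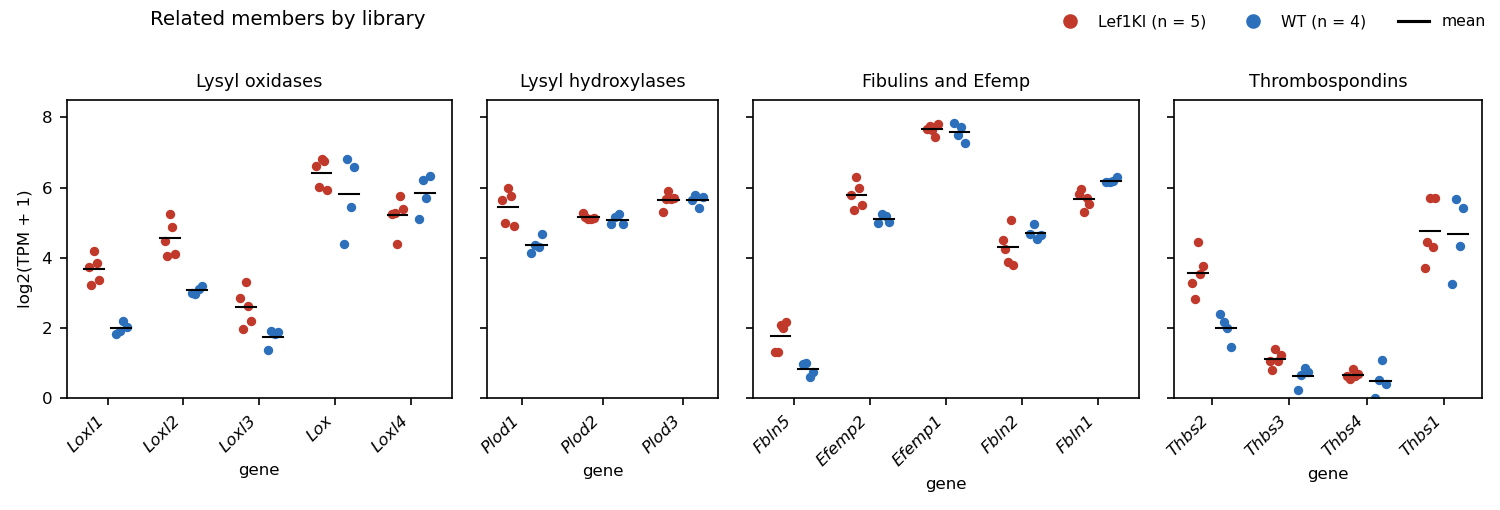
Level of related members in each library, in log2(TPM + 1), with Lef1KI points in red left of WT points in blue and a bar at each group's mean. Loxl1, Loxl2, Plod1 and Fbln5 have groups that do not overlap with Lef1KI above, Fbln1 with Lef1KI below, and Plod2, Plod3, Efemp1 and Thbs1 overlap.

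Among 7 genes of collagen hydroxylation and propeptide removal, 3 rose (median log2 difference 0.42). Pcolce, whose product enhances removal of the procollagen C-propeptide, had 76.6, 43.7, 129, 89.2 and 61.3 TPM in Lef1KI A to E, against 16.8, 29.2, 22.2 and 19.2 TPM in WT A, B, E and D (log2 difference 1.76, SE 0.28, limma adjusted p 0.00345), and the groups did not overlap. Pcolce (ENSMUSG00000029718) lies on chromosome 5 from 137605103 to 137613784. Its relative Pcolce2 had 3.38, 1.93, 4.65, 2.45 and 5.01 TPM in Lef1KI A to E, against 1.14, 1.83, 1.48 and 1.5 TPM in WT A, B, E and D (log2 difference 0.80, SE 0.22, limma adjusted p 0.0477), called in only 1 of 9 leave-one-out fits. Plod1, a lysyl hydroxylase gene, had 49.02, 30.6, 62.6, 53.4 and 29.1 TPM in Lef1KI A to E, against 16.5, 19.5, 18.9 and 24.4 TPM in WT A, B, E and D (log2 difference 1.09, SE 0.23, limma adjusted p 0.0158), a call lost without WT E alone among those fits. Plod1 (ENSMUSG00000019055) lies on chromosome 4 from 147909753 to 147936767.

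The other hydroxylase genes were not called. Plod2, which hydroxylates the telopeptides of collagen, had 37.4, 34.7, 33.5, 33.6 and 34.1 TPM in Lef1KI A to E, against 30.3, 34.6, 37.05 and 29.95 TPM in WT A, B, E and D (95% interval -0.16 to 0.31, limma adjusted p 0.693). Plod3, which can also add sugars to collagen, had 38.1, 49.8, 58.3, 50.2 and 51.6 TPM in Lef1KI A to E, against 49.1, 54.4, 41.6 and 51.6 TPM in WT A, B, E and D (95% interval -0.29 to 0.31, limma adjusted p 0.984). Each of these intervals lies below the Plod1 difference of 1.09. The prolyl 4-hydroxylase subunit genes P4ha1 and P4ha2, which make collagen triple helices stable, had means of 43.9 ± 8.24 TPM in Lef1KI and 48.5 ± 5.31 TPM in WT for P4ha1, and 25.4 ± 6.76 TPM in Lef1KI and 18.8 ± 5.31 TPM in WT for P4ha2 (SD, n = 5 and 4; log2 differences -0.16 and 0.42, limma adjusted p 0.538 and 0.265).

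Whether relatives within a family moved unequally was tested on the log2 ratio of each pair of related members in each library, taken as the difference of their log2(TPM + 1) values. For members near or under 1 TPM, such as Fbln5, the added 1 makes this ratio smaller in size than that of the TPM values. There were 42 pairs in 17 families. In 13 pairs the exact two-sided permutation p over libraries was 0.0159, the smallest possible, and after adjustment over the pairs the smallest was 0.0514, so no pair passed 0.05 (20 pairs had an unadjusted p under it). With that smallest p and 42 pairs, a lone pair could not pass whatever its shift. The adjusted values therefore cannot decide whether relatives moved unequally. The Loxl1/Loxl4 log2 ratio was -1.54 ± 0.79 in Lef1KI and -3.85 ± 0.54 in WT (SD, n = 5 and 4; exact permutation p 0.0159, adjusted 0.0514, higher in 5 of 5 Lef1KI libraries than in any WT library). The Plod1/Plod3 log2 ratio was -0.19 ± 0.52 in Lef1KI and -1.27 ± 0.24 in WT and the Fbln5/Fbln1 log2 ratio -3.89 ± 0.65 in Lef1KI and -5.37 ± 0.22 in WT (SD, n = 5 and 4; exact permutation p 0.0159 and adjusted 0.0514 for each). The Loxl1/Loxl2 log2 ratio of -0.88 ± 0.14 in Lef1KI and -1.08 ± 0.11 in WT overlapped between groups (exact permutation p 0.0635, adjusted 0.116). These pairs were chosen for printing after their values were seen.

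Matricellular and adhesive glycoproteins held 8 rises among 15 members, with a median log2 difference of 0.49. Of the 15, 7 had reached 3 SD in Lef1KI only, Postn, Smoc2, Smoc1 and Ecm2 among them, and of the 8 that reached it in both groups 4 rose. Postn, the gene of periostin, which promotes collagen fibril assembly, had 4.28, 4.04, 10.9, 4.75 and 4.41 TPM in Lef1KI A to E, against 0.43, 1.13, 0.44 and 0.55 TPM in WT A, B, E and D (log2 difference 1.96, SE 0.26, limma adjusted p 0.00145). Postn (ENSMUSG00000027750) lies on chromosome 3 from 54361109 to 54391037. Spon1, the gene of F-spondin, had 43.8, 29.9, 60.5, 47.8 and 17.9 TPM in Lef1KI A to E, against 6.77, 7.57, 9.47 and 12.1 TPM in WT A, B, E and D (log2 difference 1.96, SE 0.31, limma adjusted p 0.00388). Spon1 (ENSMUSG00000038156) lies on chromosome 7 from 113765998 to 114043370. Thbs2, the gene of thrombospondin-2, an inhibitor of angiogenesis, had 8.69, 6.03, 20.98, 10.7 and 12.7 TPM in Lef1KI A to E, against 4.22, 3.53, 2.96 and 1.74 TPM in WT A, B, E and D (log2 difference 1.57, SE 0.31, limma adjusted p 0.011). Thbs2 (ENSMUSG00000023885) lies on chromosome 17 from 14665500 to 14694235. None of these overlapped between groups.

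Sparc and Fn1 were the most abundant genes of this role to rise. Sparc encodes a collagen-binding glycoprotein and had 342, 342, 406, 381 and 315 TPM in Lef1KI A to E, against 169.9, 234, 170.3 and 175 TPM in WT A, B, E and D (log2 difference 0.93, SE 0.12, limma adjusted p 0.00161), with even the highest WT library below every Lef1KI library. Sparc (ENSMUSG00000018593) lies on chromosome 11 from 55394500 to 55423183. Fn1, the fibronectin gene, had 121, 102, 215, 123 and 119 TPM in Lef1KI A to E, against 46.2, 103, 60.9 and 70.05 TPM in WT A, B, E and D (log2 difference 0.95, SE 0.25, limma adjusted p 0.0414). Fn1 (ENSMUSG00000026193) lies on chromosome 1 from 71585520 to 71653200. Lef1KI B and WT B met at nearly the same Fn1 level, and it stayed called in 3 of 9 leave-one-out fits and under neither scaling.

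The other rises of this role were in genes of lower level. Smoc2, a calcium-binding relative of Sparc, had 4.88, 3.67, 6.15, 4.35 and 2.11 TPM in Lef1KI A to E, against 0.49, 1.17, 1.65 and 1.56 TPM in WT A, B, E and D (log2 difference 1.22, SE 0.25, limma adjusted p 0.0132). Its paralogue Smoc1 had 0.61, 0.79, 1.06, 0.94 and 0.44 TPM in Lef1KI A to E, against 0.44, 0.02, 0.26 and 0.16 TPM in WT A, B, E and D (log2 difference 0.54, SE 0.13, limma adjusted p 0.0327), where Lef1KI E and WT A met and it stayed called in 3 of 9 leave-one-out fits. Ecm2, a neighbour of the leucine-rich proteoglycan genes on chromosome 13, had 0.61, 0.68, 0.68, 0.39 and 0.31 TPM in Lef1KI A to E, against 0.01, 0.15, 0.12 and 0.08 TPM in WT A, B, E and D (log2 difference 0.49, SE 0.10, limma adjusted p 0.0124). Smoc1 and Ecm2 lost their calls under both scalings.

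Ecm1 had the highest mean of the matricellular genes over the 9 libraries, although Sparc lay above it in all 5 Lef1KI libraries. Its difference was the most negative of all members but was not called, except without WT A or with array weights. Ecm1, whose protein is prominent in skin and binds basement membrane components, had 287, 144, 195, 249.97 and 179 TPM in Lef1KI A to E, against 189.6, 376, 857 and 1249 TPM in WT A, B, E and D (log2 difference -1.36, SE 0.47, limma adjusted p 0.108). Ecm1 (ENSMUSG00000028108) lies on chromosome 3 from 95734147 to 95739569. WT A lay within the range of the Lef1KI libraries, while WT B, E and D lay above all of them. Thbs1, the gene of thrombospondin-1, had 12.1, 20.97, 50.6, 18.9 and 50.9 TPM in Lef1KI A to E, against 8.51, 50.4, 19.04 and 41.5 TPM in WT A, B, E and D (95% interval -1.09 to 1.31), and Tnc, the tenascin-C gene, had 14.7, 27.1, 58, 40.8 and 49.4 TPM in Lef1KI A to E, against 28.5, 44.2, 41.4 and 27.8 TPM in WT A, B, E and D (95% interval -0.78 to 0.75). Both intervals are wide. Thbs3, Spock2, Thbs4 and Spon2 had log2 differences between 0.13 and 0.48 and were not called, with means no higher than 1.196 TPM in each group.

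Of 8 matrilins, von Willebrand A domain proteins and proteins with sushi or discoidin domains, 4 rose (median log2 difference 0.75). Svep1, whose large secreted product binds integrin alpha9 beta1, had 28.04, 14.6, 32.7, 24.6 and 11.1 TPM in Lef1KI A to E, against 2.14, 5.64, 4.15 and 4.44 TPM in WT A, B, E and D (log2 difference 2.14, SE 0.33, limma adjusted p 0.00313). Svep1 (ENSMUSG00000028369) lies on chromosome 4 from 58042442 to 58206859. Aebp1, the gene of a collagen-binding protein secreted by fibroblasts and smooth muscle, had 121, 74.8, 169.7, 147 and 63.7 TPM in Lef1KI A to E, against 20.7, 30.03, 33.3 and 32.6 TPM in WT A, B, E and D (log2 difference 1.87, SE 0.28, limma adjusted p 0.00306) and was the most abundant of the role. Aebp1 (ENSMUSG00000020473) lies on chromosome 11 from 5861947 to 5872088. In both genes WT A was the lowest of the WT libraries and no groups overlapped.

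Srpx and Srpx2, sushi-repeat genes on the X chromosome, were lower in level. Srpx had 2.18, 1.91, 4.54, 3.73 and 1.68 TPM in Lef1KI A to E, against 0.97, 0.41, 0.55 and 0.48 TPM in WT A, B, E and D (log2 difference 1.201, SE 0.22, limma adjusted p 0.00813). Srpx2 had 1.41, 1.27, 1.96, 1.75 and 1.66 TPM in Lef1KI A to E, against 0.09, 0.36, 0.21 and 0.45 TPM in WT A, B, E and D (log2 difference 1.03, SE 0.12, limma adjusted p 0.000911), the smallest adjusted p of the members. Neither overlapped between the groups. Matn4, Matn2, Vwa1 and Vwa2 were not called, with log2 differences between 0.15 and 0.47; of these Matn4, a matrilin gene with the largest difference, had 1.42, 0.9, 1.2, 1.75 and 0.6 TPM in Lef1KI A to E, against 0.23, 0.35, 0.66 and 1.04 TPM in WT A, B, E and D (log2 difference 0.47, SE 0.19, limma adjusted p 0.158).

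Among 9 proteoglycan genes, syndecans included, all had positive differences (median 0.95), as did 9281 of the 13336 genes, and Bgn alone rose. Under both scalings the differences of Sdc1 and Sdc4 turned negative. Bgn, the gene of biglycan, a small leucine-rich proteoglycan, had 198, 102, 199.6, 169 and 84.1 TPM in Lef1KI A to E, against 23.3, 32.8, 26.4 and 45.5 TPM in WT A, B, E and D (log2 difference 2.16, SE 0.29, limma adjusted p 0.00161), the largest difference of the 64 members. Bgn (ENSMUSG00000031375) lies on chromosome X from 73483602 to 73495933. Lum, the lumican gene, had 22.2, 12.3, 22.2, 14.2 and 7.46 TPM in Lef1KI A to E, against 2.71, 6.66, 7.19 and 7.33 TPM in WT A, B, E and D (log2 difference 1.23, SE 0.34, limma adjusted p 0.0511), without overlap and just short of the threshold. Lum (ENSMUSG00000036446) lies on chromosome 10 from 97565128 to 97572703. Vcan, the gene of the hyaluronan-binding proteoglycan versican, likewise did not overlap (12.8 ± 5.83 TPM in Lef1KI and 5.605 ± 0.697 TPM in WT, SD, n = 5 and 4; log2 difference 0.97, SE 0.27, limma adjusted p 0.0521).

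Prelp and Ogn, also small leucine-rich proteoglycan genes, had means of 48.1 ± 19.03 TPM in Lef1KI and 23.6 ± 9.01 TPM in WT for Prelp, and 7.38 ± 3.62 TPM in Lef1KI and 3.33 ± 1.92 TPM in WT for Ogn (SD, n = 5 and 4; log2 differences 1.00 and 0.95, limma adjusted p 0.0761 and 0.114). For both of them WT B lay among the Lef1KI libraries. Calls for both Lum and Vcan appeared with a pseudocount of 0.1, a minimum of 1 TPM in 1 group, a robust variance prior or array weights. Lum was also called without Lef1KI E or among genes at 3 SD in both groups, and Vcan without Lef1KI A or without Lef1KI B. In all these genes the WT libraries held the transcript at above 1 TPM.

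The syndecans are transmembrane heparan sulphate proteoglycans, and none of the 4 passed the test. Sdc1, with the highest mean of the 64 members over the 9 libraries, had 473, 477, 509, 568 and 601 TPM in Lef1KI A to E, against 473, 438, 525 and 483 TPM in WT A, B, E and D (95% interval -0.11 to 0.36, limma adjusted p 0.477). Sdc4 had 209, 203, 194, 154 and 205 TPM in Lef1KI A to E, against 168, 217, 194 and 187 TPM in WT A, B, E and D (95% interval -0.25 to 0.27, limma adjusted p 0.975). Sdc2 had 39.4, 28.1, 31.5, 31.4 and 24.9 TPM in Lef1KI A to E, against 21.96, 20.8, 23.6 and 18.4 TPM in WT A, B, E and D, without overlap and just short of the threshold (log2 difference 0.52, SE 0.15, limma adjusted p 0.0536). Sdc3 overlapped (log2 difference 0.35, limma adjusted p 0.512), with Lef1KI D at 35.7 TPM above the other libraries.

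The name pattern also takes 7 genes whose products are not known matrix proteins, and 0 of them passed limma's test. Their differences ran from -0.65 (Mfap3l) to 0.41 (Mfap1b), with 4 of the 7 (Mfap3l, Vwa7, Vwa8 and Mfap1b) at an unadjusted p under 0.05. Mfap3l had 10.3, 10.1, 6.25, 9.52 and 6.04 TPM in Lef1KI A to E, against 8.87, 12.8, 15.9 and 18.2 TPM in WT A, B, E and D (log2 difference -0.65, SE 0.24, limma adjusted p 0.128), and Vwa5a, the most abundant, had 27, 31.2, 33.03, 36.4 and 26.9 TPM in Lef1KI A to E, against 36.4, 23.6, 23.8 and 24.5 TPM in WT A, B, E and D (log2 difference 0.20, SE 0.16, limma adjusted p 0.465). Vwa7 had 0.54, 0.45, 0.28, 0.48 and 0.29 TPM in Lef1KI A to E, against 0.57, 0.74, 0.86 and 0.85 TPM in WT A, B, E and D (log2 difference -0.32, SE 0.10, limma adjusted p 0.0708), and passed under both scalings. Mfap1a and Mfap1b, components of the splicing machinery, are close copies of each other, so reads could be split between them, and Vwa9 and Mfap1a overlapped between groups.

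The members that rose were also counted by level, the mean TPM over the 9 libraries. Under 1 TPM 3 of 9 members rose, against 10.1% of all genes at that level, and between 1 and 10 TPM 13 of 21 rose, against 9.89%. Between 10 and 30 TPM 3 of 14 rose (4.55% of all genes), between 30 and 100 TPM 5 of 14 (3.85%), and at 100 TPM or more 2 of 6 (4.81%). Of the rises, all 3 under 1 TPM (Fbn2, Smoc1 and Ecm2) and 5 of the 13 between 1 and 10 TPM (Eln, Mfap2, Postn, Smoc2 and Srpx2) had reached 3 SD in Lef1KI only. The levels at 100 TPM or more belong to Sdc1, Ecm1, Sparc, Efemp1, Sdc4 and Fn1, of which Sparc and Fn1 rose. Summed over the 26 members that rose, the level was 1135, 852, 1513, 1213 and 827 TPM in Lef1KI A to E, against 359, 527, 408 and 444 TPM in WT A, B, E and D. Summed over all 64 members the groups overlapped, at 2493 to 3430.1 TPM in Lef1KI and 1914 to 3208 TPM in WT, and Ecm1 alone made up 1249 of the 3208 TPM in WT D.

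**Figure D3:**
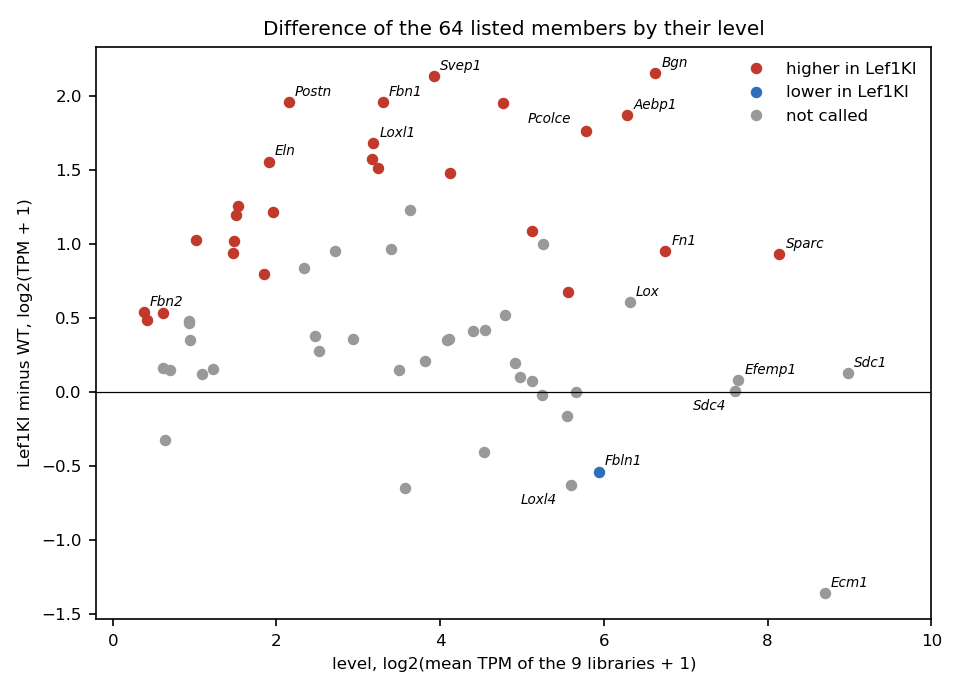
Difference of each member, Lef1KI minus WT in log2(TPM + 1), against its level, the log2 of 1 plus the mean TPM of the 9 libraries. Most red points, the 26 members that rose, lie left of 6 on the level axis, while Sdc1, Sdc4 and Efemp1 lie at the right near 0.

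Among the Lef1KI libraries, C was most often the highest. Lef1KI C held the highest value of its group for 21 of the 26 members that rose, and the lowest value was in Lef1KI B for 13 and in Lef1KI E for 12. In WT the lowest value was in WT A for 18 of the 26. Over all genes, too, Lef1KI C had the highest median log2 value of the 9 libraries (3.97) and WT A the lowest (3.58). With each library centred on its median, as given above, 21 members rose and 2 fell. The part of these medians in the order of the libraries was not tested. Without Lef1KI C 22 members rose and 0 fell. Over all genes 666 rose and 91 fell in that fit, against 898 and 165 with every library. The 22 members lacked Fn1, Pcolce2, Efemp2 and Smoc1.

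Fibroblast marker genes moved with these members. Of 16 markers (members left out), 12 are in the table and 12 of the 12 rose, against 6.73% of all genes (median log2 difference 2.28). Of these, 10 had reached 3 SD in both groups and 10 of the 10 rose, against 5.69% of all genes of that kind. The other 2 had reached it in Lef1KI only. In WT 11 of the 12 averaged 1 TPM or more. The summed level of the 12 was 689, 511, 1049.8, 879 and 329 TPM in Lef1KI A to E, against 78.5, 99.9, 123 and 137 TPM in WT A, B, E and D. Within Lef1KI the order of the libraries was C, D, A, B and E for this sum and also for the summed members that rose. Within WT the orders differed, at D, E, B and A for the markers and B, D, E and A for the members that rose. Col1a1, a fibrillar collagen gene, had means of 40.4 ± 17.6 TPM in Lef1KI and 4.96 ± 1.22 TPM in WT, and the receptor gene Pdgfra 18.7 ± 6.87 TPM in Lef1KI and 4.54 ± 1.58 TPM in WT (SD, n = 5 and 4). The part of such cells in the results was not tested, and in bulk RNA fewer cells of a type and less RNA per cell cannot be told apart. Meox1, Tcf21, Pi16 and Dpp4 were not analysed.

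Markers of other cell types were summed in the same way, and their shares of rises stand against 6.73% of all genes. Of 10 measured endothelial markers 6 rose (median log2 difference 1.56), but only 2 of the 10 reached 3 SD in both groups and 1 of these 2 rose, while 7 had entered through Lef1KI alone. Their sums were 37.03 to 112 TPM in Lef1KI and 19.9 to 29.9 TPM in WT. Of 5 smooth muscle and pericyte markers 0 passed limma's test and 2, Des and Notch3, had an unadjusted p under 0.05 (sums 23.3 to 37.6 TPM in Lef1KI and 21.5 to 32.99 TPM in WT). Notch3 made up most of these sums (means 28.02 TPM in Lef1KI and 19.9 TPM in WT). Chondrocyte markers, of interest because the trachea holds cartilage, gave 0 calls among 6, with sums of 8.09 to 14.5 TPM in Lef1KI and 7.26 to 10.8 TPM in WT and 1 gene, Col9a2, at an unadjusted p under 0.05. Of 5 leukocyte markers 2 rose, Lyz2 and Coro1a (log2 differences 1.95 and 0.45). The sums over the 5 were 58.6 to 244 TPM in Lef1KI and 111 to 259.6 TPM in WT. Cd68 made up most of these sums (means 93.7 TPM in Lef1KI and 180 TPM in WT). It was not called (log2 difference -1.18, limma adjusted p 0.136). Ptprc, Csf1r and Tyrobp were among the markers not analysed. Of 2 glial markers 0 passed limma's test and 1, S100b, had an unadjusted p under 0.05. All 10 basal and myoepithelial markers were present, with sums of 20855 to 25018 TPM in Lef1KI and 16023 to 23028 TPM in WT. Of these, 2 rose (Cdh1 and Cdh3), 0 fell and 6 had positive differences (median 0.19). Acta2, whose promoter drives the Cre, had the most negative difference and was not called (62.3 ± 31.2 TPM in Lef1KI and 129 ± 41.04 TPM in WT, SD, n = 5 and 4; log2 difference -1.13, limma adjusted p 0.0834).

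**Figure D4:**
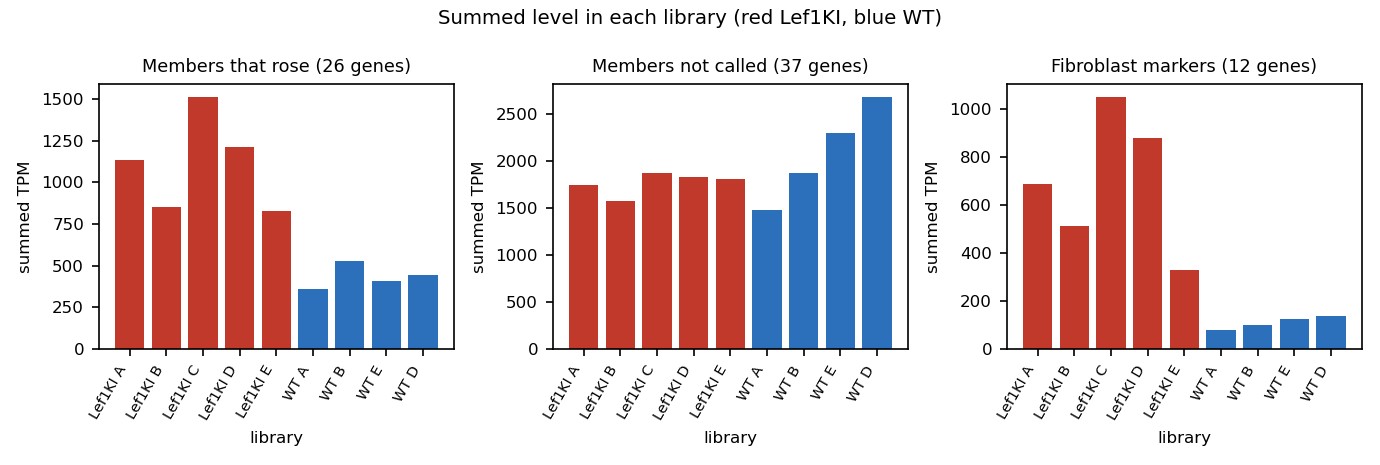
Summed TPM in each library for the 26 members that rose, the 37 members not called and 12 fibroblast markers, with the 5 Lef1KI libraries in red left of the 4 WT libraries in blue. The members that rose and the fibroblast markers are highest in Lef1KI C and lowest among Lef1KI libraries in Lef1KI E, while the members not called overlap between groups.

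**Figure D5:**
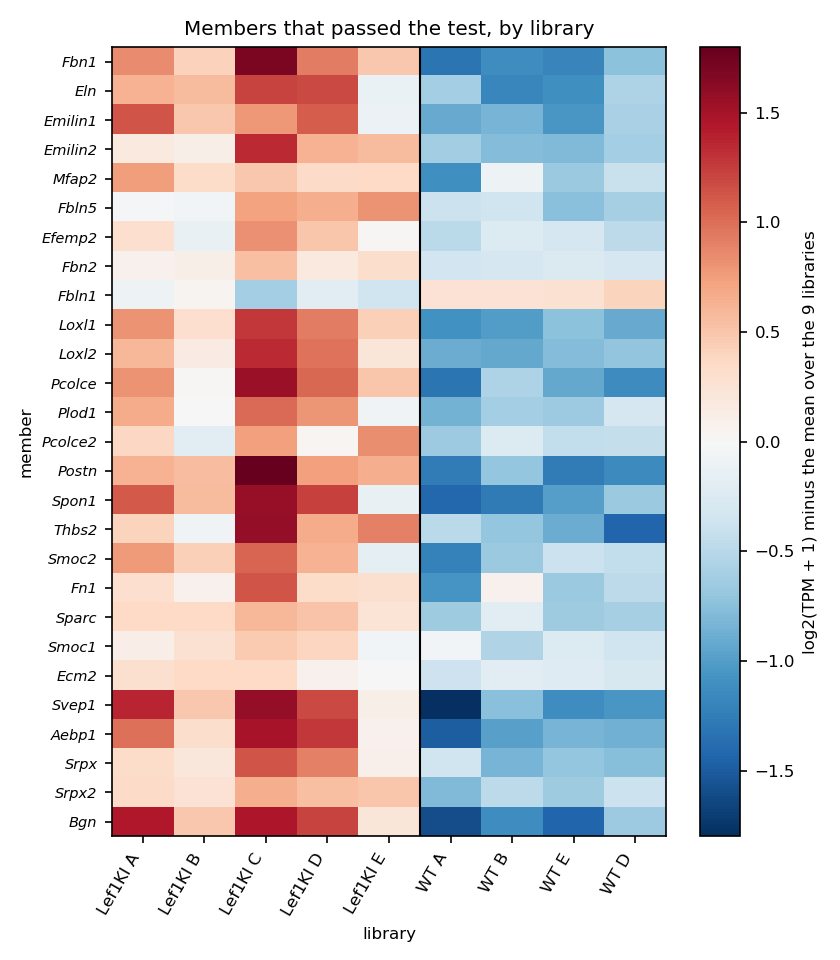
Level of the 27 members that passed the test in each library, in log2(TPM + 1) less the member's mean over the 9 libraries, with Lef1KI libraries left of the line. The column of Lef1KI C is the darkest red for most members, and Fbln1 alone has the reverse pattern.

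Genes that work with these members were read from lists kept apart from the name pattern, and means are given with the SD over 5 Lef1KI and 4 WT libraries. Their shares of rises stand against 6.73% of all genes. Of 20 measured genes of collagen folding, secretion and propeptide processing 6 rose (30%) and 0 fell (median log2 difference 0.52). Adamts2, which removes the procollagen N-propeptide, had means of 20.9 ± 8.82 TPM in Lef1KI and 2.82 ± 0.637 TPM in WT (log2 difference 2.44, limma adjusted p 0.000911). Fkbp10, a collagen chaperone gene, and P3h1, a prolyl 3-hydroxylase gene, rose by 1.28 and 0.81 on the log2 scale. Of 8 latent TGF-beta binding proteins and other microfibril partners 3 rose (37.5%) and 1 fell (median -0.02): Ltbp1, which tethers latent TGF-beta to the matrix (25.5 ± 13.4 TPM in Lef1KI and 8.67 ± 1.59 TPM in WT), Adamtsl1 (log2 difference 0.70) and Adamts10 (0.78) rose, and Adamtsl5 fell (-0.76). In the 9 leave-one-out fits Ltbp1 and Adamtsl1 were called in 5 each, Adamts10 in 1 and Adamtsl5 in 7.

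Of 19 other proteoglycan and hyaluronan genes 5 rose (26.3%) and 0 fell (median log2 difference 0.55), among them the small leucine-rich proteoglycan genes Dcn, Aspn and Podn (log2 differences 2.67, 0.82 and 0.90), each called in 9 of 9 leave-one-out fits. The other 2 were less stable, Gpc3 being called in 5 and Tsku in 0 of the 9. Dcn, the decorin gene, had 309, 263, 446, 402 and 105 TPM in Lef1KI A to E, against 25.98, 39.8, 48.7 and 61.4 TPM in WT A, B, E and D, with Lef1KI A, C and D above Lef1KI B and E, as for Bgn. Dcn and Dpt are also among the fibroblast markers. Of 30 other matrix and matricellular glycoprotein genes 14 rose (46.7%) and 3 fell (median 0.80). Sparcl1, a relative of Sparc, had means of 45.2 ± 16.9 TPM in Lef1KI and 5.56 ± 2.88 TPM in WT, and Fstl1 and Dpt rose by 1.85 and 2.50. Mfge8, Tgfbi and Papln fell, by log2 differences of -0.47, -1.49 and -0.70, and stayed called in 3, 4 and 1 of 9 leave-one-out fits. Of 17 TGF-beta and activin response genes 4 rose (23.5%) and 0 fell (median 0.10), led by Inhba, an activin subunit gene (32.7 ± 12.7 TPM in Lef1KI and 7.22 ± 1.08 TPM in WT), with Tgfbr2 (0.98) and Id3 (1.07).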

How the data were processed

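RNA of cultured tracheal gland cells was sequenced from stranded poly(A) libraries, per the labels' protocols, in 5 Lef1KI and 4 WT libraries. The authors deposited log2(TPM + 1) values, with RSEM and mm10 named in the submitters' processing notes (versions: not given in the sources used here); deposited were genes whose mean is at least 3 SD in 1 group. Library letters come from the deposited column names, and nothing ties them to the replicate numbers of the labels. P-values measure the spread between pools.

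Differences were tested with limma 3.58.1 (R 4.3.3, with variance trend) on those deposited log2 values, over 13336 genes, Lef1KI against WT, with Benjamini-Hochberg adjustment and a threshold of 0.05. The fit was tested on simulated data. TPM was recovered as 2 to the power of the value, less 1. Single values used an exact two-sided permutation test. TPM keeps no read depth, so no counting interval is given. Members and gene lists were chosen with earlier results of these data known. Named with values were every called member and, per role, the most abundant member and the uncalled member of largest difference with a group mean of at least 1 TPM; of other lists, up to 3 genes per direction with the smallest adjusted p. Others were chosen after their values were seen. Positions are from GENCODE M21 (mm10), and promoter windows are from RefSeq (GRCm38.p6). Alternatives were other pseudocounts, filters, centrings, variance settings, a block on the column letter and leaving out each library.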

Additional observations from a re-analysis of the deposited data

Results flagged for a closer look

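In 9 of 128 groups of values (64 members in each genotype), 1 library stood apart from the others of its group by Dixon's test, which by chance does so in about 1 in 20 groups. In Lef1KI C, Postn at 10.9 TPM and Fn1 at 214.53 TPM lay above the other Lef1KI libraries. In Lef1KI D, Sdc4 lay below the others of its group at 153.87 TPM. In WT A, Lum at 2.71 TPM, Loxl3 at 1.61 TPM and Matn2 at 3.98 TPM lay below the other WT libraries, and Vwa5a at 36.44 TPM lay above them. In WT B Sparc was high at 234.1 TPM, and in WT E Spock2 was high at 1.22 TPM.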

How the results depend on the processing

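Of the 27 called members, 16 kept their call in every alternative that tested them and 19 in every such one but the block on the column letter; the filters left out some low members. Leaving out 1 library in turn gave 21 to 27 members higher and 0 to 2 lower, and 565 to 1416 genes higher and 63 to 270 lower over the table. Members lower numbered 2 with median or trimmed-mean centring and 4 with array weights; genes lower over the table numbered 332, 311 and 587 in these settings, and genes higher with array weights 1747. The replicate block gave 16 members higher and 0 lower (437 and 47 genes). In the block Lef1KI C, the only library of its letter, adds nothing to the differences. They equal those without Lef1KI C (Bgn 2.035 in both), a fit that without a block gave 22 members higher and 0 lower. Correlations of the deviations of same-letter libraries were -0.26 (A), 0.02 (B), -0.15 (E) and 0.26 (D). WT D correlated best with the Lef1KI library of its own letter, while WT A did so with Lef1KI E, and WT B and WT E with Lef1KI A. No spread from pairs of unlike letters stands beside these values, so whether the letters pair the libraries cannot be decided. With only genes at 3 SD in both groups fitted, chosen after seeing the data, 18 members were higher and 1 lower (653 and 118 genes). The median difference of all members was 0.84 with a pseudocount of 0.1. By role, medians were 1.51 (pseudocount 0.1) and 0.37 (pseudocount 5) for elastic fibre genes, 0.56 (pseudocount 5) and 0.57 (array weights) for lysyl oxidases, 0.96 (0.1) for matricellular genes, 1.46 (0.1), 0.26 (5) and 1.54 (3 SD in both groups) for matrilins and sushi proteins, and 0.55 (5) and 0.62 (array weights) for proteoglycans. Differences changed sign for uncalled members only, turning negative except for Tnc, which was at -0.016 in the main fit and turned positive. Median centring gave -0.004 for Vwa2, -0.031 for Sdc1, -0.011 for Mfap4, -0.006 for Matn2, -0.033 for Spon2, -0.076 for Efemp1, -0.085 for Plod2, -0.052 for Thbs1, -0.154 for Plod3 and -0.152 for Sdc4. Trimmed-mean centring gave -0.027 for Sdc1, -0.007 for Mfap4, -0.001 for Matn2, -0.028 for Spon2, -0.071 for Efemp1, -0.08 for Plod2, -0.047 for Thbs1, -0.149 for Plod3 and -0.147 for Sdc4. Array weights gave -0.026 for Thbs4, -0.347 for Thbs1 and -0.048 for Sdc4, and the block -0.121 for Thbs1 and -0.055 for Plod3. Leaving out 1 library gave ranges of -0.03 to 0.353 for Vwa2, -0.037 to 0.267 for Mfap4, -0.184 to 0.366 for Matn2, -0.001 to 0.221 for Spon2, -0.001 to 0.36 for Thbs4, -0.201 to 0.276 for Tnc, -0.026 to 0.168 for Efemp1, -0.365 to 0.446 for Thbs1, -0.07 to 0.095 for Plod3 and -0.053 to 0.087 for Sdc4. The cause of these changes was not tested.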
